A study of Mus musculus with 6 samples.

Results

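The genes described here are the Wnt pathway's secreted ligands, their receptors, their secreted antagonists and a few genes that the pathway itself turns on, 45 genes chosen by name. Of these, 44 were measured among the 19938 genes of the array table, each through the probe set with the highest mean among those annotated to that gene alone, and Tcf7 was not analysed here. They comprise 15 ligands (12 Wnts and 3 R-spondins), 16 receptors (10 Frizzleds, 4 co-receptors and 2 R-spondin receptors), 9 antagonists and 4 targets. These families are not covered whole: Wnt1, Wnt3a, Wnt7a, Wnt8a, Wnt8b, Wnt10a, Wnt10b, Rspo4, Lgr6, Ryk, Dkk4 and Sost are in a further list below. Total RNA came from untreated mouse embryos, wild-type and of strain C57BL/6, 13.5 days postcoitum, from the ascending aorta (3 arrays) and from the descending aorta (3 arrays). Strain, genotype and age are the same in both groups. The arrays are labelled as biological replicates, but no embryo, litter or pool is named for any of them. The p-values set the difference between segments against the spread among arrays of a segment. Whether that spread is one among embryos, litters or pools is not known. Values are log2 expression from the authors' RMA processing, on which a difference of 1 is a 2-fold difference. The level of a gene is not set against that of another, because probe sets differ in brightness.

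Wnt proteins are lipid-modified secreted signals that bind Frizzled receptors. Together with the co-receptors Lrp5 and Lrp6 they stabilise beta-catenin, which acts with Tcf and Lef factors on target genes, while Ror receptors carry signals that work without beta-catenin and shape cell polarity and movement. Secreted Frizzled-related proteins and Wif1 bind Wnts outside the cell, Dickkopf proteins bind Lrp5 and Lrp6, and R-spondins, held by Lgr receptors, keep Frizzleds on the cell surface. In the embryonic heart and great vessels the pathway is known for its part in the outflow tract, the neural crest and the growth of vessel wall cells.

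The comparison is between segments of the aorta. Ascending smooth muscle comes largely from the neural crest and descending smooth muscle from mesoderm. Origin, position along the aorta and mix of cells cannot be told apart in this design. The antagonists Sfrp4 and Dkk2 and the R-spondin receptor Lgr5 had lower levels on every ascending array than on any descending array, with mean differences of -1.66, -1.04 and -0.75 on the log2 scale. The R-spondin gene Rspo1 and the nuclear factor gene Lef1 were higher on every ascending array, by 0.40 and 0.33. Within the antagonist and the R-spondin families the members did not share a direction: Dkk2 and Sfrp4 had lower means, whereas Dkk3 and Sfrp5 had higher ones, and Rspo1 had a higher mean, whereas Rspo2 and Rspo3 had lower ones. Most of the Wnt and Frizzled genes differed by less than 0.25.

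None of these differences passed the test over all 6 arrays. Of the 44 genes 0 had an adjusted p under 0.05 in limma, a linear model fitted per gene and adjusted over all 19938 genes, where the share over all genes was also 0%. The lowest adjusted p of a member was 0.53. Before adjustment, 11 members had a p under 0.05, 4 higher and 7 lower in ascending aorta, or 25% against 9.29% of all genes (3.96% higher and 5.33% lower). For 11 members the arrays of the segments did not overlap, 3 being higher and 8 lower in ascending aorta, or 25% against 14.8% of all genes (5.87% higher and 8.95% lower). There are 9 genes in both of these counts. Because the genes were picked with earlier results of these data known, these shares are descriptions and carry no test. All 44 members also lay above the 25th percentile of mean expression, whereas the shares over all genes include dimmer genes. The median difference was -0.036 over the 44 members and -0.021 over all genes, and the median absolute difference was 0.19 over the members and 0.092 over all genes.

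The array labelled ascending aorta replicate 3 stood apart from its group, and its label could not be checked from the values, so each comparison of 3 against 3 arrays takes that label as given. Across genes, which are not independent replicates, it correlated at a mean of 0.988 with its own group and 0.996 with descending aorta. Ascending replicate 1 had 0.992 and 0.990, and ascending replicate 2 had 0.989 and 0.985. Over the 44 members the median absolute deviation of ascending replicate 3 from the descending mean was 0.14. It was 0.18 for ascending replicate 1 and 0.32 for ascending replicate 2. Ascending replicate 3 was therefore left out in a further fit. Without it, 7 members passed in limma, or 15.9% against 4.68% of all genes. Of these, 4 were lower (Sfrp4, Dkk2, Lgr5 and Rspo3) and 3 were higher (Fzd1, Sfrp5 and Dkk3) in ascending aorta, where 2.61% of all genes were lower and 2.07% higher. The segments then did not overlap for 27 members, 11 higher and 16 lower, or 61.4% against 34.5% of all genes (15.6% higher and 18.9% lower). Leaving out an array because of its values makes the p-values and SEs of that fit likely too small. For Sfrp4, Dkk2 and Lgr5, ascending replicate 3 was on the same side of the descending arrays as the other ascending arrays but nearer to the descending arrays than to them. It lay among the descending arrays for Fzd1, and beyond them on the opposite side for Rspo3, Sfrp5 and Dkk3. The main results below are therefore given with and without it.

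The summed marker levels of mesothelium and epicardium, cardiac muscle, endothelium and nerve did not overlap between the segments. This difference is given here without a test. Each sum adds unlogged levels, so the brightest genes of a list weigh most, such as Stmn2 for nerve, whose own arrays overlapped. Of the single markers in these lists, arrays were apart for 4 of 8, 3 of 10, 4 of 8 and 0 of 5. The share over all genes was 14.8%. Smooth muscle markers were present on all arrays, Acta2 at 13.72, 13.74 and 13.63 in ascending and 13.67, 13.77 and 13.72 in descending aorta, and the summed level of 8 such genes (log2 of the sum) was 14.57 to 14.90 in ascending and 14.70 to 14.73 in descending aorta, with 4 of 8 means higher. Within that list the differences ran both ways. Myh11, the smooth muscle myosin heavy chain, and the myosin kinase gene Mylk were lower on every ascending array, with differences of -0.53 ± 0.23 and -0.27 ± 0.10 (SE). Synpo2, an actin-binding protein gene, had 10.54, 11.10 and 8.52 in ascending and 9.14, 8.68 and 8.78 in descending aorta, and without ascending replicate 3 Synpo2 and the actin nucleator gene Lmod1 were higher by 1.95 and 0.54 (limma, adjusted p = 0.00169 and 0.0404). The sum of 8 mesothelial and epicardial markers was 12.69 to 13.69 in ascending and 12.35 to 12.61 in descending aorta, with 7 of 8 means higher. The sum of 10 cardiac muscle markers was 12.63 to 13.37 in ascending and 12.15 to 12.54 in descending aorta, with 10 of 10 means higher. In both lists, and for endothelium, ascending replicate 3 was the ascending array nearest to the descending ones. The sum of 8 endothelial markers was 13.52 to 14.12 in ascending and 14.14 to 14.40 in descending aorta, with 0 of 8 means higher, and that of 5 nerve markers (of 8 listed) was 10.83 to 10.91 in ascending and 11.01 to 11.25 in descending aorta. The sum of 8 foregut and lung epithelium markers was 10.60 to 11.67 in ascending and 10.54 to 10.65 in descending aorta, with 6 of 8 means higher. It was high on ascending replicates 1 and 2, where the keratins were high, such as Krt19 at 9.90, 9.79 and 8.09 in ascending and 8.03, 8.15 and 8.20 in descending aorta. The epithelial adhesion genes Epcam and Cdh1 were high on ascending replicate 1, at 6.82 and 7.90, against descending means of 6.08 and 6.91. The transcription factor genes Nkx2-1, Sox2 and Foxa2 differed by 0.00079, -0.20 and -0.082. The 8 macrophage markers summed to 12.00 to 13.47 in ascending and 12.92 to 13.16 in descending aorta, with the lowest value on ascending replicate 2. That array was also the lowest for Wnt2, Wnt2b, Wnt4, Wnt16, Rspo2, Rspo3, Fzd3, Lrp5, Ror2, Sfrp1, Sfrp4, Dkk2 and Notum. The same array was the highest for Wnt5a, Wnt5b, Wnt7b, Wnt11, Rspo1, Fzd1, Fzd5, Fzd7, Fzd8, Fzd9, Sfrp2, Frzb, Dkk3 and Lef1. How many of all genes were lowest or highest on it was not counted. The 8 cartilage and sclerotome markers overlapped, at 11.14 to 11.37 in ascending and 11.12 to 11.39 in descending aorta. No marker was at 0 on any array. In bulk RNA fewer cells of a type and less RNA per cell cannot be told apart, and the part of these cell types in the Wnt gene differences was not tested.

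**Figure D1:**
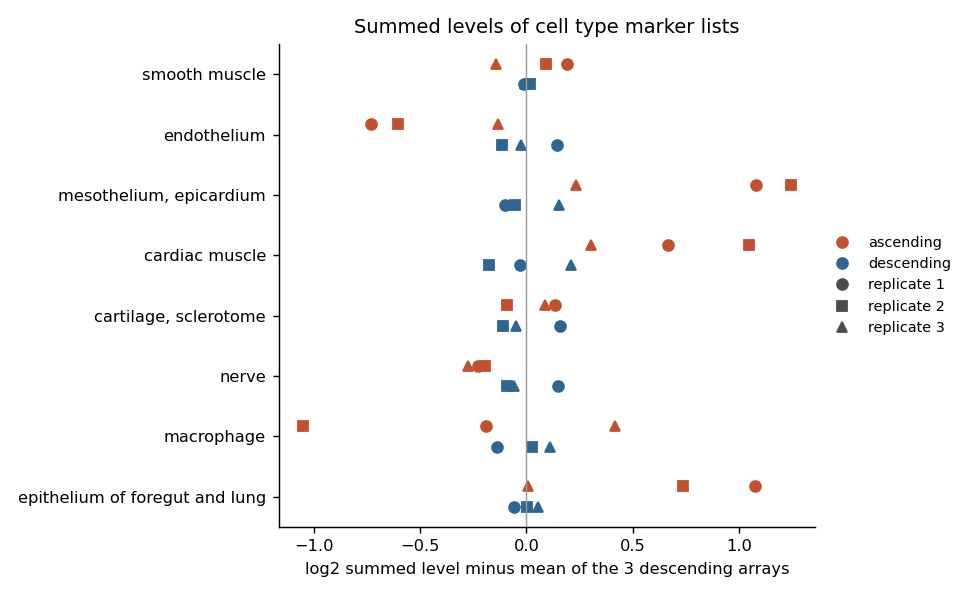
Summed level of each cell type marker list on each array, as log2 of the sum minus the mean of the 3 descending arrays (horizontal axis), with ascending arrays (orange) drawn above descending arrays (blue) in each row and marker shapes for the replicate number. Ascending replicates 1 and 2 lie to the right for mesothelium and epicardium, cardiac muscle and epithelium and to the left for endothelium.

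**Figure D2:**
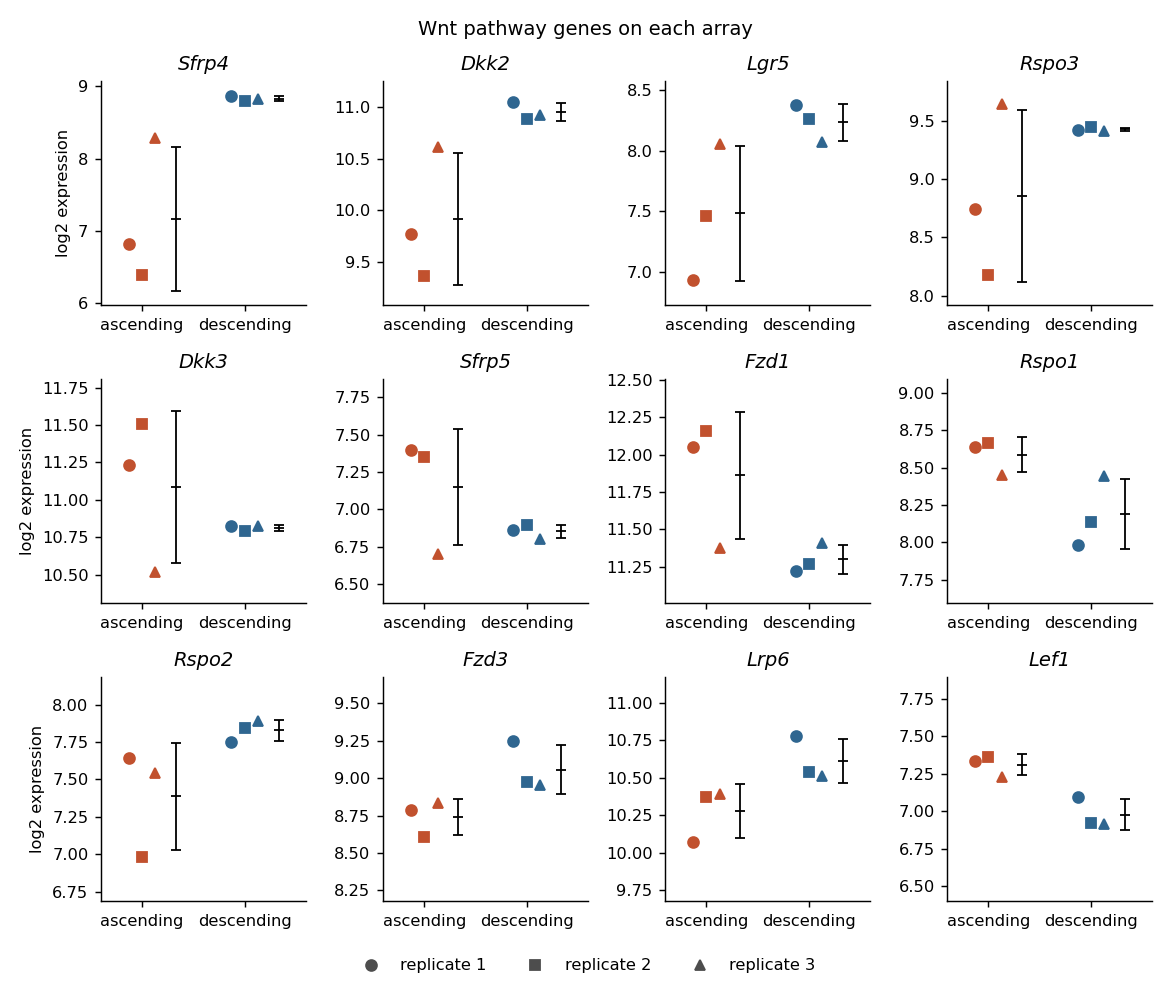
Log2 expression (vertical axis, a different window in each panel) of 12 Wnt pathway genes on the 3 ascending (orange, left) and 3 descending (blue, right) arrays. Marker shapes give the replicate number, and the bar beside each group is its mean ± SD (n = 3). For Sfrp4, Dkk2 and Lgr5 ascending replicate 3 lies between the other ascending arrays and the descending arrays, and for Dkk3 and Sfrp5 it lies below all of them.

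The antagonists held the members with the largest differences. Sfrp4 (probe set 10403834), a secreted Frizzled-related protein that binds Wnts, stood at 6.83, 6.39 and 8.29 on ascending replicates 1, 2 and 3 and at 8.87, 8.80 and 8.82 on descending replicates 1, 2 and 3. All 3 ascending values lay below all descending ones, and the ascending arrays were far more spread than the descending arrays. Sfrp4 averaged 7.17 ± 1.00 in ascending and 8.83 ± 0.038 in descending aorta (SD, n = 3 each), a difference of -1.66 ± 0.43 (SE) or 3.16-fold lower (limma, adjusted p = 0.53). Without ascending replicate 3 it was 4.67-fold lower, a difference of -2.22 ± 0.13 (adjusted p = 0.000245).

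Dkk2 (probe set 10496125), a Dickkopf protein that binds the co-receptors, had 9.76, 9.36 and 10.62 on the ascending arrays and 11.06, 10.89 and 10.93 on the descending arrays. The groups did not overlap, and ascending replicate 2 was the lowest array, as it was for Sfrp4. The difference was -1.04 ± 0.28 (SE), or 2.06-fold lower in ascending aorta (limma, adjusted p = 0.53), and -1.39 ± 0.13 without ascending replicate 3 (adjusted p = 0.0016). Dkk3, a divergent family member whose action on Wnt signalling varies with the tissue, gave 11.23, 11.51 and 10.52 on the ascending arrays and 10.83, 10.79 and 10.82 on the descending ones. Ascending replicates 1 and 2 lay above and replicate 3 below the narrow descending range, so the groups overlapped. Its difference of 0.27 ± 0.23 over all arrays became 0.56 ± 0.11 without ascending replicate 3 (limma, adjusted p = 0.0268), while leaving out ascending replicate 2 gave 0.062. Dkk1, a co-receptor blocker like Dkk2, differed by -0.025 ± 0.13 (SE).

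Sfrp5, another Wnt-binding Frizzled-related protein, had 7.40, 7.35 and 6.70 on the ascending arrays and 6.86, 6.89 and 6.81 on the descending arrays. As with Dkk3, ascending replicates 1 and 2 were above the descending arrays and ascending replicate 3 was below them. Over all arrays the difference was 0.30 ± 0.18 (adjusted p = 0.603), and without ascending replicate 3 it was 0.52 ± 0.089 (limma, adjusted p = 0.0171). It was 0.17 without ascending replicate 1. Frzb, the Frizzled-related protein of developing cartilage and mesenchyme, stood at 11.83, 11.95 and 11.52 in ascending and 11.41, 11.75 and 11.58 in descending aorta, with overlapping groups and a difference of 0.19 ± 0.14, or 0.31 ± 0.12 without ascending replicate 3 and 0.095 without ascending replicate 2. Wif1, which sequesters Wnts, gave 6.32, 6.35 and 6.74 in ascending and 6.66, 6.81 and 6.74 in descending aorta. Only ascending replicates 1 and 2 were below the descending arrays, and the difference was -0.27 ± 0.12 over all arrays and -0.40 ± 0.093 without ascending replicate 3 (limma, adjusted p = 0.548 and 0.0534). Sfrp1 and Sfrp2, both bright on every array, differed by -0.15 ± 0.15 and 0.10 ± 0.088 (SE), and their groups overlapped. Without ascending replicate 3 the differences were -0.31 and 0.18 with groups apart, and without ascending replicate 2 they were -0.0011 and 0.065. By role, the median difference of the 9 antagonists was -0.025, with 4 means higher and 5 lower (Dkk1 changed sign under the other scalings). It became 0.081 when ascending replicate 3 was left out, and likewise 0.081 when descending replicate 1 was.

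Promoter sequence from RefSeq (GRCm38.p6) is shown for the antagonists and the Frizzled that passed without ascending replicate 3 and have an entry, Dkk2 as a gene with lower levels in ascending aorta and Sfrp5 and Fzd1 as genes with higher levels there. Each run holds the 250 bases before the annotated start, 5′ to 3′ on the gene's strand, and capitals mark matches to TATAAA on either strand. Sfrp4, Dkk3, Lgr5 and Rspo3 are named only.
Dkk2, chr3:132085042-132085291, plus strand: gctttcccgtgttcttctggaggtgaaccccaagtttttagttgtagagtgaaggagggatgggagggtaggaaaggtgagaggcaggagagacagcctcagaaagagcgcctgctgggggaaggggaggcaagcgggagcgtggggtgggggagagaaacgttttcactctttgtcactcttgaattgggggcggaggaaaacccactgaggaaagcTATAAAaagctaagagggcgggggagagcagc
Sfrp5, chr19:42202253-42202502, minus strand: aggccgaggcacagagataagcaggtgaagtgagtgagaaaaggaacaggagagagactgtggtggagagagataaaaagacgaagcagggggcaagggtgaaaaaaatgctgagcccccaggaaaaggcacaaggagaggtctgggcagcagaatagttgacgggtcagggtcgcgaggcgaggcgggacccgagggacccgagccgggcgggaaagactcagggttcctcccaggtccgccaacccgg
Fzd1, chr5:4758217-4758466, minus strand: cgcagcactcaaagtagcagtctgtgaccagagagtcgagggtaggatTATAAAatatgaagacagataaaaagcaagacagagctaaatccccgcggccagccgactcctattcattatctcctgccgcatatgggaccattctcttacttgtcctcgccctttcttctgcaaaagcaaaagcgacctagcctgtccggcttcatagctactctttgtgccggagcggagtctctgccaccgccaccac
The TATAAA match of Dkk2 starts 32 bases before the annotated start and that of Fzd1 202 bases before it, and Sfrp5 has no match in this window. Such a match is present in 12.4% of the 32851 promoters of the same length. The windows are 55.6% G or C for Dkk2, 59.6% for Sfrp5 and 51.2% for Fzd1. The 7-letter sites of Tcf and Lef factors, searched as CTTTGAA or as CTTTGAT or as CTTTGTA or as CTTTGTT on both strands, have 0 matches in these 3 windows. Over all promoters 14.8% hold such a site, and so do 5 of the 35 promoter entries of 29 members (those of Wnt5b, Wnt11, Fzd7, Dkk1 and Lef1). A TATAAA match is in 6 of the 35 (Wnt11, Fzd1, Dkk1, Dkk2, Wif1 and Lef1).

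**Figure D3:**
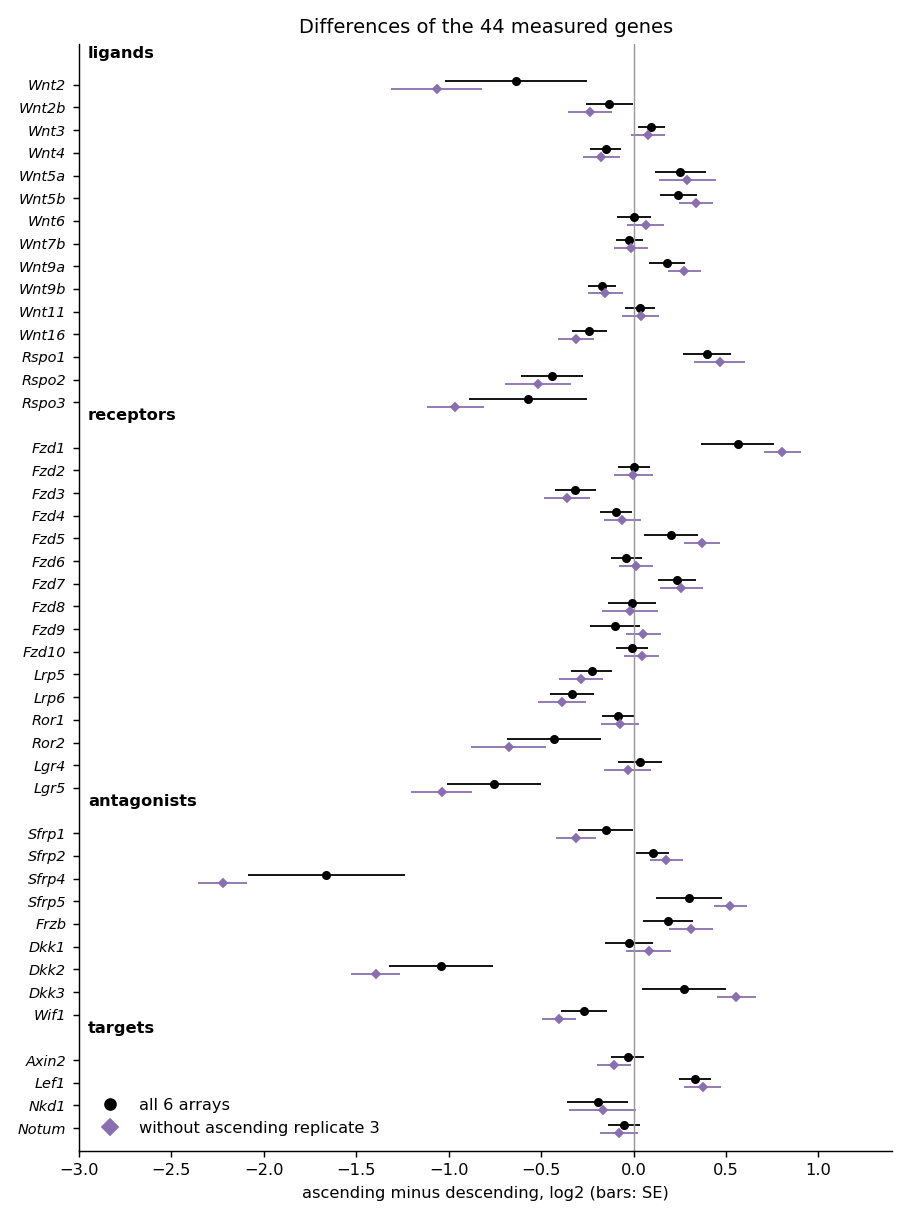
Difference of each of the 44 measured genes, ascending minus descending, on the log2 scale (horizontal axis), grouped as ligands, receptors, antagonists and targets from top to bottom. Black points use all 6 arrays and violet points leave out ascending replicate 3, with bars of 1 SE. Among the black points, Sfrp4 at -1.66 and Dkk2 at -1.04 lie farthest to the left.

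Among the ligands, the R-spondins had means on both sides of the descending level. Rspo1, an amplifier of Wnt signals known from ovary development, stood at 8.64, 8.67 and 8.45 on ascending replicates 1, 2 and 3 and at 7.98, 8.14 and 8.44 on descending replicates 1, 2 and 3. Every ascending array was above every descending array, although ascending replicate 3 exceeded descending replicate 3 by very little. The difference was 0.40 ± 0.13 (SE), or 1.32-fold higher (limma, adjusted p = 0.53), and 0.47 ± 0.14 without ascending replicate 3. Rspo2, known for its role in limb and lung development, had 7.64, 6.98 and 7.54 on the ascending arrays and 7.75, 7.84 and 7.89 on the descending arrays. The groups did not overlap, but ascending replicate 2 lay well below the rest, and the difference of -0.44 ± 0.17 (adjusted p = 0.53) became -0.24 without it and -0.52 without ascending replicate 3.

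Rspo3, which is needed for vessel development in the mouse embryo, gave 8.74, 8.18 and 9.64 on the ascending arrays and 9.42, 9.44 and 9.41 on the descending arrays. Ascending replicates 1 and 2 were low and ascending replicate 3 was the highest array of all, next to 3 descending values that nearly coincided. Over all arrays Rspo3 differed by -0.57 ± 0.32 (adjusted p = 0.585), and without ascending replicate 3 by -0.96 ± 0.16, or 1.95-fold lower (limma, adjusted p = 0.014). Leaving out ascending replicate 2 instead gave -0.23.

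Of the 12 Wnt genes, 6 had higher and 6 lower means in ascending aorta (Wnt7b changed sign under both other scalings), and 10 differed by less than 0.25. Wnt2, a ligand of lung and heart mesenchyme, was the most variable of them, with 7.76, 6.91 and 8.62 on the ascending arrays and 8.12, 8.65 and 8.42 on the descending arrays. Ascending replicates 1 and 2 were below the descending arrays and replicate 3 was among them, with a difference of -0.63 ± 0.38 over all arrays and -1.06 ± 0.25 without replicate 3 (limma, adjusted p = 0.608 and 0.0534), and -0.21 without replicate 2. Wnt16, known for its effect on cortical bone, had 6.74, 6.68 and 6.93 in ascending and 7.12, 7.01 and 6.93 in descending aorta, and Wnt9b, which acts early in kidney tubule formation, had 7.20, 7.26 and 7.18 in ascending and 7.44, 7.30 and 7.41 in descending aorta. Both were lower on all 3 ascending arrays, with differences of -0.24 ± 0.10 and -0.17 ± 0.076 (SE), or -0.31 and -0.15 without ascending replicate 3, and for Wnt16 the margin between ascending replicate 3 and descending replicate 3 was under 0.01.

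Wnt5a and Wnt5b, ligands best known for signalling without beta-catenin, had higher ascending means. Wnt5b stood at 8.56, 8.59 and 8.28 in ascending and 8.31, 8.20 and 8.19 in descending aorta, a difference of 0.24 ± 0.10 (limma, adjusted p = 0.534). Its ascending replicate 3 was among the descending arrays, and the difference without it was 0.34 ± 0.091. Wnt5a gave 10.10, 10.40 and 10.14 in ascending and 10.19, 9.97 and 9.72 in descending aorta, with overlapping groups and a difference of 0.25 ± 0.14, which was 0.13 without descending replicate 3. Wnt9a, known from joint and heart valve development, differed by 0.18 ± 0.10, Wnt4, of kidney and ovary development, by -0.15 ± 0.085 and Wnt2b by -0.13 ± 0.13 (SE), all with overlapping groups. Without ascending replicate 3 the arrays of Wnt9a and Wnt2b were apart, with differences of 0.27 and -0.24, whereas Wnt9a gave 0.12 without ascending replicate 1 and Wnt2b -0.022 without ascending replicate 2. The 4 others, Wnt3, Wnt6, Wnt7b and Wnt11, differed by -0.024 to 0.10, each with overlapping groups. Wnt4 had 2 probe sets, which gave -0.15 and -0.14. Over the 15 ligands the median difference was -0.024, and 0.024 after repeated quantile normalization.

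Among the receptors, Lgr5, an R-spondin receptor that is itself a Wnt target and marks stem cells in several tissues, had 6.93, 7.46 and 8.05 on the ascending arrays and 8.38, 8.26 and 8.07 on the descending arrays. All ascending values were below all descending ones, with ascending replicate 3 only just below descending replicate 3. Lgr5 differed by -0.75 ± 0.25 (SE), or 1.68-fold lower (limma, adjusted p = 0.53), and by -1.04 ± 0.17 without ascending replicate 3 (adjusted p = 0.0129), and by -0.48 without ascending replicate 1. Its relative Lgr4 did not show this pattern, with 9.62, 9.46 and 9.73 in ascending and 9.37, 9.73 and 9.61 in descending aorta and a difference of 0.033 ± 0.12, although the difference between the Lgr genes was not tested.

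Fzd1 (probe set 10527936), a Frizzled that carries beta-catenin signals, stood at 12.05, 12.16 and 11.38 on ascending replicates 1, 2 and 3 and at 11.22, 11.27 and 11.41 on descending replicates 1, 2 and 3. Ascending replicates 1 and 2 were high and ascending replicate 3 was within the descending range. The difference was 0.56 ± 0.20 over all arrays (limma, adjusted p = 0.53) and 0.81 ± 0.10, or 1.75-fold higher, without ascending replicate 3 (adjusted p = 0.00454). Fzd7, linked to polarity and migration, had 9.64, 9.87 and 9.68 in ascending and 9.63, 9.36 and 9.50 in descending aorta. It was higher on every ascending array, by 0.23 ± 0.10 on average (adjusted p = 0.538) and by 0.26 without ascending replicate 3, and the gap between ascending replicate 1 and descending replicate 1 was slight. Fzd5, known from eye and yolk sac vessel development, gave 8.07, 8.10 and 7.58 in ascending and 7.65, 7.83 and 7.66 in descending aorta, with ascending replicate 3 the lowest of all, and differed by 0.20 ± 0.15, or 0.37 ± 0.10 without it and 0.11 without ascending replicate 2.

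Fzd3, known for axon guidance and planar polarity, had 8.79, 8.61 and 8.83 in ascending and 9.25, 8.97 and 8.95 in descending aorta. It was lower on every ascending array, with a mean difference of -0.31 ± 0.11 (limma, adjusted p = 0.53), which was -0.36 without ascending replicate 3 and -0.22 when descending replicate 1, its highest array, was left out. The other 6 Frizzleds, Fzd2, Fzd4, Fzd6, Fzd8, Fzd9 and Fzd10, differed by -0.10 to 0.002 with overlapping groups. Fzd4, the Norrin receptor of endothelium, was among them at 10.17, 10.27 and 10.11 in ascending and 10.39, 10.20 and 10.24 in descending aorta.

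The co-receptors all had lower ascending means. Lrp6, the main partner of Frizzleds in beta-catenin signalling, stood at 10.07, 10.37 and 10.39 in ascending and 10.78, 10.54 and 10.51 in descending aorta, and its groups did not overlap. It differed by -0.33 ± 0.12 (limma, adjusted p = 0.53), and by -0.39 ± 0.13 without ascending replicate 3. Its paralog Lrp5, best known for its effect on bone mass, had 10.32, 10.28 and 10.46 in ascending and 10.78, 10.43 and 10.53 in descending aorta. The Lrp5 groups overlapped, with a difference of -0.23 ± 0.11. It became -0.13 without descending replicate 1, and -0.28 with groups apart without ascending replicate 3. Ror2, a Wnt5a receptor, gave 9.69, 8.91 and 10.04 in ascending and 10.07, 9.91 and 9.95 in descending aorta. Ascending replicate 2 was far below the other arrays, and the difference of -0.43 ± 0.25 was -0.11 without that array and -0.68 without ascending replicate 3. Ror1 differed by -0.085 ± 0.086. Over the 16 receptors the median difference was -0.063, with 5 means higher and 11 lower, of which the near-zero Fzd2, Fzd8 and Fzd10 changed sign under another scaling.

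**Figure D4:**
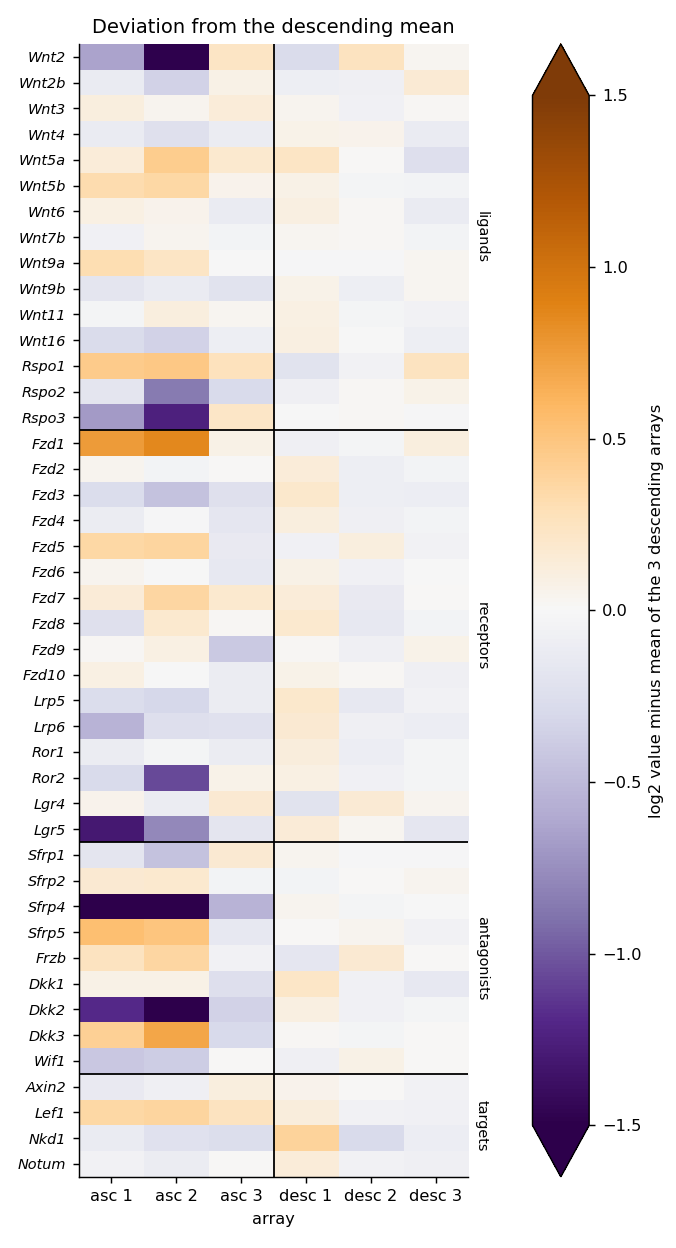
Log2 value of each of the 44 genes (rows, grouped by role) on each array (columns, ascending left and descending right of the vertical line) minus the mean of the 3 descending arrays. Violet is lower and orange higher, and the colour scale ends at 1.5 in either direction. The strongest colours stand on ascending replicates 1 and 2, whereas ascending replicate 3 is pale for most genes and most violet for Sfrp4, Fzd9 and Dkk2.

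Among the targets, the largest difference was that of Lef1. Lef1, a nuclear partner of beta-catenin that is also induced by the pathway, had 7.34, 7.36 and 7.23 on the ascending arrays and 7.10, 6.92 and 6.91 on the descending arrays. Every ascending array was higher, replicate 3 included, and the ascending values lay close together. The difference was 0.33 ± 0.086 (SE), or 1.26-fold higher (limma, adjusted p = 0.53), 0.37 ± 0.10 without ascending replicate 3 (adjusted p = 0.0832), and between 0.30 and 0.39 when each array was left out in turn. Axin2, a feedback inhibitor widely used as a readout of beta-catenin signalling, stood at 7.21, 7.27 and 7.46 in ascending and 7.39, 7.34 and 7.29 in descending aorta. The groups overlapped, and Axin2 differed by -0.032 ± 0.09. Ascending replicates 1 and 2 were below and replicate 3 above all descending arrays. Without replicate 3 the difference was -0.10 ± 0.09, with groups apart (limma, adjusted p = 0.641). Notum, a secreted enzyme that inactivates Wnts, gave 6.67, 6.61 and 6.72 in ascending and 6.85, 6.66 and 6.64 in descending aorta, with a difference of -0.05 ± 0.086. Nkd1, an intracellular feedback inhibitor, had 9.48, 9.39 and 9.35 in ascending and 9.99, 9.31 and 9.50 in descending aorta. Descending replicate 1 alone stood out there, and the difference of -0.19 ± 0.16 became -0.00071 without it.

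Further pathway genes were read from 3 lists outside the members, and in each of them 0 genes passed over all 6 arrays in limma, with 3 of 25, 1 of 23 and 3 of 20 genes at an unadjusted p under 0.05, against 9.29% of all genes. Groups did not overlap for 5 of 25, 3 of 23 and 3 of 20 genes, against 14.8% of all genes. Of 25 genes that act at or outside the cell surface, 11 had higher and 14 lower means, with a median of -0.015. The Wnts among them (Wnt1, Wnt3a, Wnt7a, Wnt8a, Wnt8b, Wnt10a and Wnt10b) differed by -0.13 to 0.035, each with overlapping groups and a mean below the median gene. Ptk7, a polarity co-receptor, had 9.81, 10.07 and 9.77 in ascending and 9.68, 9.55 and 9.62 in descending aorta, higher on every ascending array by 0.27 ± 0.10. Tpbg, a surface inhibitor of beta-catenin signalling, was higher by 0.22 ± 0.093 on average and the antagonist gene Sostdc1 was lower, with a difference of -0.40 ± 0.17, both with groups apart. Sost, the co-receptor antagonist sclerostin, was named after its values were seen: it stood at 9.13, 8.99 and 7.91 in ascending and 8.33, 7.95 and 8.10 in descending aorta. Ascending replicates 1 and 2 were high and replicate 3 was below all descending arrays, and Sost was the 1 gene of this list that passed without replicate 3 (0.94 ± 0.13, limma, adjusted p = 0.0068).

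In the intracellular beta-catenin branch, 7 of 23 genes had higher and 16 lower means, and the median was -0.060. Beta-catenin itself, Ctnnb1, lay at 12.87, 12.88 and 12.86 in ascending and 12.78, 12.98 and 12.85 in descending aorta, a difference of -0.00093 ± 0.079. Ctnnd2, a catenin known from neuronal junctions, had 9.32, 9.84 and 8.21 in ascending and 8.31, 8.03 and 8.28 in descending aorta. It was high on ascending replicates 1 and 2 alone, with a difference of 0.92 ± 0.36 over all arrays and 1.37 ± 0.16 without replicate 3 (limma, adjusted p = 0.53 and 0.004). Btrc, part of the complex that marks beta-catenin for breakdown, differed by -0.23 ± 0.10 and the kinase gene Csnk1a1 by 0.16 ± 0.079, both with groups apart.

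In the planar polarity branch, 10 of 20 genes had higher and 10 lower means, with a median of 0.0062. Dact2, a Dishevelled-binding regulator, stood at 9.16, 9.53 and 7.99 in ascending and 7.77, 7.71 and 7.89 in descending aorta. It was higher on every ascending array, by 1.10 ± 0.35 on average (limma, adjusted p = 0.53), and by 1.55 ± 0.13 without ascending replicate 3 (adjusted p = 0.000907). Its relative Dact3 was also higher on every ascending array, by 0.24 ± 0.092. Vangl1, a core polarity membrane protein, had 8.91, 8.81 and 9.49 in ascending and 9.54, 9.45 and 9.49 in descending aorta, with replicate 3 among the descending arrays. Its difference was -0.42 ± 0.17 over all arrays and -0.63 ± 0.092 without that array (adjusted p = 0.00895).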

How the data were processed

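The deposited values are log2 expression of 35556 probe sets of an Affymetrix mouse gene array on 6 arrays, made by the authors with RMA, per the submitters' processing notes, which also list Partek 6.6. As usually run, RMA subtracts background, gives the probes of all arrays 1 distribution and summarises them. A change shared by most genes can then be hidden, and differences of dim genes can be understated. The genome build is not given in the sources used here. Probe sets with exactly 1 symbol in the platform annotation (21789) were used, and the brightest per gene was kept, which left 19938 genes. No filter was applied.

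Segments were compared with lmFit and eBayes of limma 3.58.1 (R 4.3.3), without covariates. Its two-sided p-values were adjusted by Benjamini and Hochberg's method over the whole table and read at 0.05. With 3 arrays a group, exact permutation cannot go below p = 0.1, so it was not used. The members and lists were chosen with earlier results of these data known. Named genes were, per role, the 5 with the smallest unadjusted p, every member that passed under any alternative, and the 3 smallest p of each further list; other members are given where their family is described. The alternatives were 2 scalings, filters on dim genes, other probe set rules, a variance trend, arrays weighted by quality, a block for the replicate number, and each array left out. The fit was tested on simulated data whose spread left out the deviations of ascending replicate 3, so that test does not cover an array that stands apart. Promoters came from RefSeq, GRCm38.p6. Tables and plots were made in Python 3.11.15 (pandas 2.3.3, matplotlib 3.10.9). The number of arrays limits the precision.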

Additional observations from a re-analysis of the deposited data

How the results depend on the processing

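Over 15 alternatives, the number of members passing in limma stayed at 0 except without ascending replicate 3. The lowest adjusted p of any member in the other alternatives was 0.265, with array weights. With the replicate number as a block 0 of all genes passed. Deviations from the group mean correlated at -0.080, -0.055 and 0.024 for same-numbered arrays, and at -0.064 to 0.17 for the other pairs. Each mean rests on 3 arrays, and the ascending one holds replicate 3, so these values cannot decide whether the numbers pair the arrays. Leaving out each array in turn gave 0 to 933 genes over the whole table, 0 to 7 members passing and 11 to 27 members with groups apart. The 27 were without ascending replicate 3, where groups were apart for 34.5% of all genes. For the other arrays left out that share is not given here, so their counts are not read as a result about the members. The medians ranged from -0.050 to -0.0097 for ligands, -0.11 to -0.026 for receptors, -0.098 to 0.081 for antagonists and -0.092 to 0.0074 for targets. Above the 50th percentile of mean expression, 27 members were left, with a ligand median of 0.11 and a target median of -0.19 (Nkd1 alone). Groups were apart for 6 of these 27, but the share over all genes above that percentile is not given here. The ligand median was 0.024 after repeated quantile normalization.

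Of 44 members, 32 kept their sign under all alternatives run. The other 12 had differences of at most 0.10 in size. Repeated quantile normalization gave Wnt7b 0.024, Fzd2 -0.0090, Fzd10 0.038, Dkk1 0.013 and Axin2 0.0018. Median-centring gave Wnt7b 0.0052, Fzd8 0.022, Fzd10 0.021 and Dkk1 0.0046. Array weights gave Fzd6 0.0055, Fzd10 0.040, Lgr4 -0.017 and Dkk1 0.069. Leaving out arrays gave Wnt6 -0.056 to 0.066, Wnt11 -0.0031 to 0.079, Fzd2 -0.044 to 0.070, Fzd6 -0.078 to 0.013, Fzd8 -0.10 to 0.10, Fzd9 -0.20 to 0.053, Fzd10 -0.059 to 0.044, Lgr4 -0.067 to 0.11, Dkk1 -0.098 to 0.081, Axin2 -0.10 to 0.020 and Notum -0.088 to 0.016. The causes were not tested. Signal limits 17 members, among them Lgr5, Sfrp5 and Lef1, whose mean lay below the median gene. Sfrp4 is not among these, because its descending arrays were brighter and its mean over all arrays lay above the median gene. Its ascending replicates 1 and 2, at 6.83 and 6.39, lay below the median gene, so signal limits its fold differences too.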
